A study of Equus caballus with 12 samples.

Results

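Cell surface receptors decide which signals a cell can answer, and 38 of the 1341 genes listed as different between cytokine-licensed and naive equine mesenchymal stem cells carry the symbols of such receptors. They were taken from the list by symbol, by the stems of G protein-coupled receptors (GPCRs), interleukin and TNF receptors, chemokine receptors, Frizzled and LGR receptors, receptor tyrosine kinases and axon guidance receptors, leaving out the IL-1 receptor gene IL1R1. By symbol stem they fall into 10 families. Of the 38, GPRIN3 matches a stem but encodes a G protein-interacting protein and not a receptor, and TNFRSF6B encodes a decoy receptor that is secreted in humans. Both are kept because the rule takes them. Of the listed genes, 208 carry no symbol, so a gene described as not listed is one not found by symbol.

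Gene expression was measured by polyA-selected bulk RNA sequencing of mesenchymal stem cells (MSCs), plastic-adherent stromal progenitors of bone, cartilage and fat, which came from the marrow of 6 horses. Dual-licensed cultures were kept for 72 hours with the inflammatory cytokine IL-1β (2 ng/ml) and the growth factor TGF-β2 (1 ng/ml), both recombinant human proteins, and naive cultures of the same horses for 72 hours without them. The low-glucose medium with serum and antibiotics was common to both. This gave 6 licensed and 6 naive libraries of primary cells, paired by horse, and cultures with a single cytokine are not analysed here.

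Receptors of these families work in a few ways. GPCRs pass the binding of amines, peptides, lipids or chemokines to heterotrimeric G proteins, while atypical chemokine receptors bind chemokines without that step and clear or carry them. Many cytokine receptors, though not those of the IL-17 family, pair with a second chain to start JAK-STAT signalling. TNF receptors recruit TRAF adaptors, receptor tyrosine kinases phosphorylate themselves when their ligand joins 2 copies, and Frizzled receptors take up Wnt ligands. Roles given for single genes are those known from humans and mice.

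The table from which members were chosen holds only genes past the authors' own test (adjusted p under 0.05 and a change of more than 2-fold), so the direction and size of their change describe that selection and are no new evidence for it. The authors' deposited table listed 17 of the 38 as higher in licensed MSCs (44.7%, against 50% of all listed genes) and 21 as lower (55.3%, against 50%). The authors' adjusted p-values point to 13183 genes tested, of which 10.2% are listed. The median absolute deposited log2 fold change was 1.98 over the members and 1.54 over all listed genes, and 19 of the 38 changed at least 4-fold (30.1% of all listed genes). The smallest member change was that of IL10RB, 1.01 on the log2 scale, at the edge of the table. Receptor genes just outside that limit are not analysed here.

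The change had the listed direction in all 6 horses for 37 of the 38 genes (93.8% of all listed genes), and IL13RA2 was the exception with 5 of 6. Lowest and highest levels of the groups did not overlap for 20 of the 38 (59.2% of all listed genes), 11 of the 17 listed as higher (64.9%) and 9 of the 21 listed as lower (53.5%). When the listed genes were fitted again with limma on log2(normalized count + 1), 17 members were higher (48.4% of all listed genes) and 20 lower (46.8%) at an adjusted p under 0.05 and at least 2-fold. With library scaling taken from the listed genes themselves (TMM), which moved the median of all listed genes by -0.24 on the log2 scale, these counts were 11 higher and 21 lower, so that 34.4% of the called members were higher, against 45.9% with the authors' scaling. Over all listed genes the same share was 41.7% under TMM and 50.9% with the authors' scaling, so the whole table shifted the same way. No member changed direction under that scaling. Without horse 1 the counts were 14 higher and 20 lower.

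**Figure D1:**
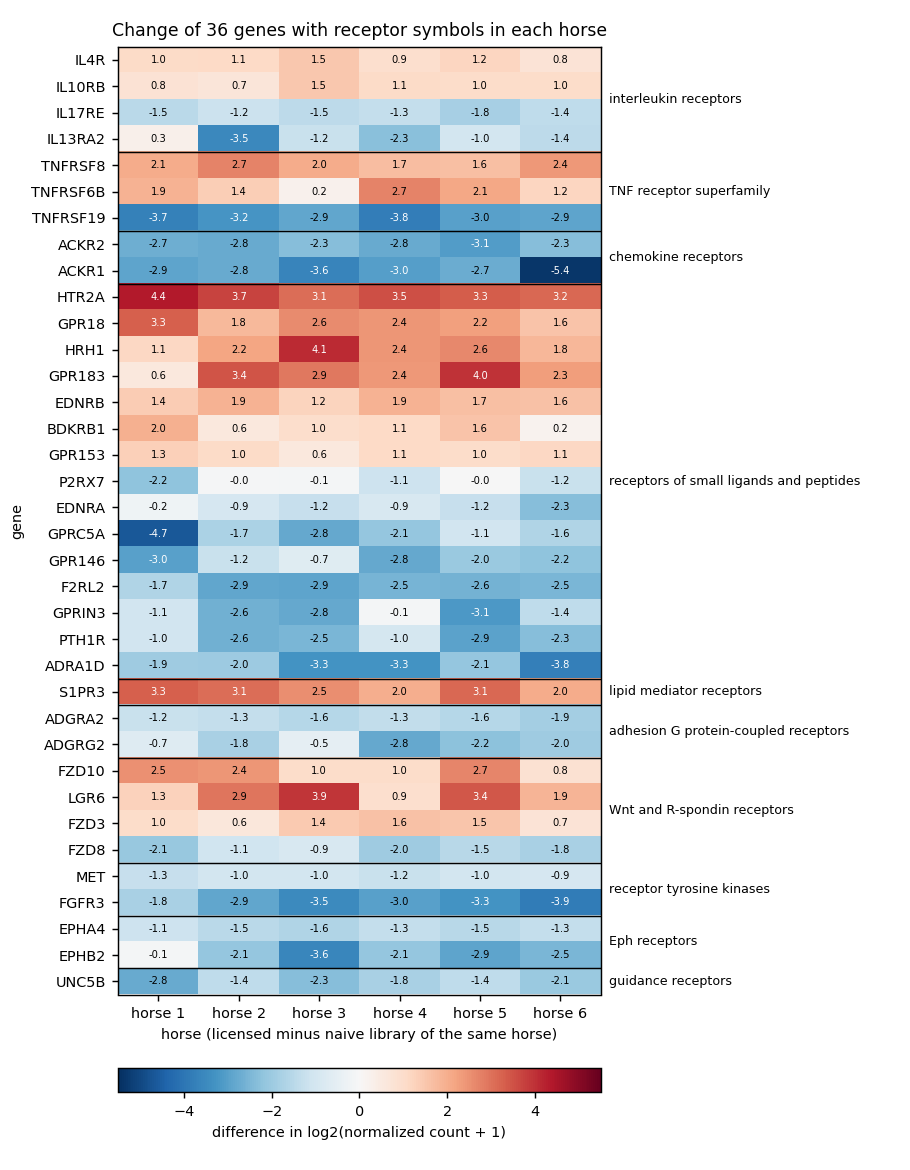
Difference in log2(normalized count + 1) between the licensed and the naive library of each of the 6 horses (columns) for 36 of the 38 genes (rows, grouped by family and ordered by the deposited fold change). Red is higher and blue lower in licensed cells, and rows keep 1 colour across horses except IL13RA2, which was higher in horse 1 only.

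The listed genes held 2718393 to 3424328 reads in licensed and 1672419 to 1844648 reads in naive libraries, which are not the depths of the whole libraries, since only listed genes are counted. The libraries of horse 1 stood apart most often: its naive library was the highest or the lowest of the naive libraries for 21 of the 38 members (61.1% of all listed genes), and its licensed library was so for 22 (51.8%), while the other horses were so for 4 to 16 members. Of 40 marker genes of MSCs and of other cell types, 3 were in the table, all lower in licensed cells: THY1 and MCAM of 11 mesenchymal stromal markers, and MYH11 of 5 pericyte and smooth muscle markers. THY1 was at 298 to 4743 normalized counts in licensed and 4625 to 31119 in naive cells. None of the 24 myeloid, lymphoid, endothelial and erythroid markers was listed, and a gene that is not listed has no value here, so the defining MSC genes NT5E, ENG and CD44 could not be checked. The part of THY1, MCAM and MYH11 in the receptor changes was not tested, and in bulk RNA fewer cells of a type cannot be told apart from less RNA per cell.

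Receptors of amines and lipids were among those that rose. HTR2A (ENSECAG00000024282), the serotonin 2A receptor, was at 178 to 892 normalized counts in licensed cells (median 689) and at 14.4 to 97.1 in naive cells (median 54.2). The culture of horse 4 was lowest in both groups, with 178 licensed and 14.4 naive, so its rise of 3.53 on the log2 scale was of the size of the others, which ran from 3.06 to 4.36. Every licensed library was above every naive library. The limma estimate was 3.53 ± 0.48 on the log2 scale (SE, adjusted p = 2.32e-05), and on the scale of group means HTR2A was 11.2-fold higher in licensed cells.

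S1PR3 (ENSECAG00000003011), a receptor of sphingosine 1-phosphate, was at 897 to 1256 normalized counts in licensed cells and at 105 to 258 in naive cells, with a limma log2 fold change of 2.68 ± 0.24 (adjusted p = 1.03e-06). The licensed libraries lay close together, while the naive ones spread more widely. HRH1 (ENSECAG00000004544), the histamine H1 receptor, had a median of 195 normalized counts in licensed cells (122 to 411) and of 37 in naive cells (20.8 to 77.3). Horse 3 had the highest licensed level and a change of 4.09 on the log2 scale, and horse 1 the highest naive level and a change of 1.15. ADRA1D (ENSECAG00000005173), the α1D adrenergic receptor, was lower, with a median of 7.41 normalized counts in licensed and 39.5 in naive cells. ADRA1D was lower in all 6 horses (limma log2 fold change -2.73 ± 0.78, adjusted p = 0.00497). Its groups overlapped all the same, with 0 to 25.0 normalized counts in licensed and 8.72 to 112 in naive cells.

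The endothelin receptors, which share the ligands endothelin 1 and 2, moved in opposite directions. EDNRB (ENSECAG00000024851) was at 2629 to 6489 normalized counts in licensed cells (median 2805), against 743 to 2466 in naive cells (median 1036). Horses 1 and 4 had the highest levels in both groups, and the change lay between 1.21 and 1.93 on the log2 scale in every horse. EDNRA (ENSECAG00000019798) was at 248 to 736 normalized counts in licensed cells (median 328) and at 482 to 1381 in naive cells (median 754), with overlapping groups and changes from -2.33 in horse 6 to -0.25 in horse 1. Within a library, the log2 ratio of EDNRB to EDNRA had a median of 3.38 in licensed (1.94 to 4.30) and 0.41 in naive cells (-0.89 to 2.09). It was higher in the licensed culture of each horse. That follows from EDNRB rising and EDNRA falling in every horse and is no separate result. The ratio holds the unequal lengths of the 2 transcripts and is read only as a change between groups. The ligand genes EDN1 and EDN2 were listed as higher too, by 1.18 and 2.80 in deposited log2 fold change. Both rose in all 6 horses, but their groups overlapped. EDN2 was at 6.06 to 184 normalized counts in licensed and 2.07 to 26.7 in naive cells, and its change in horse 1 was 0.43 on the log2 scale.

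**Figure D2:**
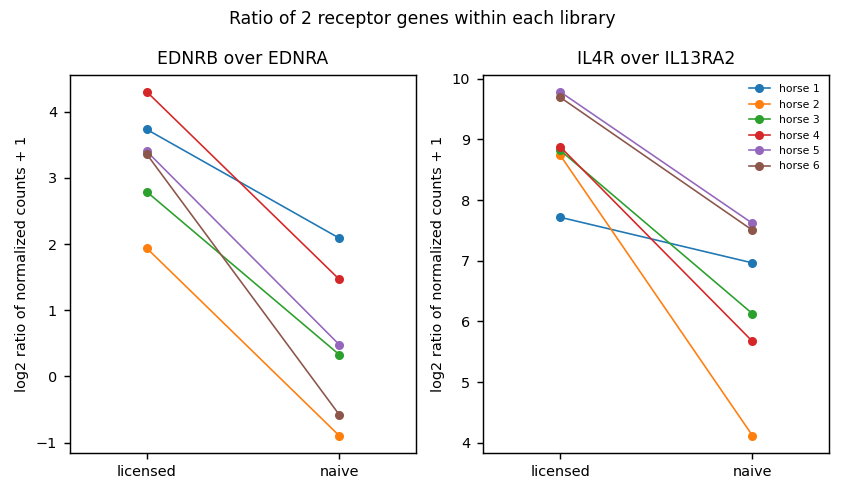
Log2 ratio of normalized counts + 1 within each library for EDNRB over EDNRA (left) and IL4R over IL13RA2 (right), with 1 line per horse from its licensed to its naive culture. All 6 lines fall towards the naive side in both panels, and the medians are 3.38 and 0.41 on the left and 8.85 and 6.55 on the right. The genes of each ratio are listed in opposite directions, so the fall is no separate result.

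Other receptors of peptides, oxysterols and orphan ligands were higher in licensed cells too. GPR18 (ENSECAG00000023448), a GPCR whose ligand is debated, was at 33.3 to 57.3 normalized counts in 5 licensed libraries and at 163 in that of horse 1, against 5.55 to 16.5 in naive cells. GPR183 (ENSECAG00000023457), which guides immune cells along oxysterols, was at 31.4 to 50.5 in licensed cells, while its naive level was 33.9 in horse 1 and 1.04 to 9.29 in the other horses. BDKRB1 (ENSECAG00000005631), the bradykinin B1 receptor, which is known to be induced in inflammation, was at 95.3 to 277 in licensed cells (median 163) and at 34.3 to 139.5 in naive cells (median 77.7). Its limma log2 fold change, 1.06 ± 0.38 (adjusted p = 0.0153), was 0.89 without horse 1 and then missed the threshold (adjusted p = 0.0521). That fit leaves out the pairing by horse, and a limma fit paired by horse (a horse block) put BDKRB1 at an adjusted p of 0.00127. The orphan receptor gene GPR153 (ENSECAG00000024683) was at 199 to 310.1 normalized counts in licensed cells, against 82.6 to 149.9 in naive cells.

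Several GPCR genes were lower in licensed cells. F2RL2 (ENSECAG00000010531), protease-activated receptor 3, a thrombin receptor, was at 33.7 to 92.2 normalized counts in 5 licensed libraries and at 401 in horse 1, against 242 to 543 in the matching naive libraries and 1264 in horse 1. All 6 horses were lower in the licensed culture, by 1.65 to 2.92 on the log2 scale, and the overlap of the groups came from horse 1 alone. GPRC5A (ENSECAG00000014921), an orphan receptor induced by retinoic acid, was at 14.1 to 215 in licensed cells (median 153) and at 373 to 725 in naive cells (median 524), and the licensed library of horse 1 was the lowest. PTH1R (ENSECAG00000008888), the parathyroid hormone receptor of bone and cartilage, was at 0 to 16.5 normalized counts in licensed and 1.06 to 87.8 in naive cells. Its log2 fold change of -2.08 ± 0.87 (adjusted p = 0.0337) did not pass once horse 2, 3 or 5 was left out (adjusted p = 0.0803, 0.0809 and 0.0890), while the log2 fold change stayed between -2.30 and -1.91 without any 1 horse. The paired fit put PTH1R at an adjusted p of 0.00027. The licensed library of horse 1 held 0 reads of PTH1R, which counting error alone allows for up to 3 expected reads. GPR146, an orphan receptor, and GPRIN3 were at or below 18.4 in licensed and 47.8 in naive cells.

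P2RX7 (ENSECAG00000009949), a cation channel opened by extracellular ATP and a trigger of IL-1β release in macrophages, had 1 naive library far above the others. Its naive level was 825 normalized counts in horse 1 and 126 to 197 in the other 5 horses, while licensed levels ran from 76 to 178. The deposited log2 fold change was -1.10, limma gave -0.79 ± 0.41 (adjusted p = 0.0768). Pairing the cultures by a horse block brought the adjusted p to 0.0218. Without horse 1 it was -0.51 (adjusted p = 0.0579). The change was -2.21 on the log2 scale in horse 1, -1.14 in horse 4 and -1.24 in horse 6, and it lay between -0.12 and -0.01 in horses 2, 3 and 5.

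Among interleukin receptors, the shared chains were higher and 2 chains of narrower use lower. IL4R (ENSECAG00000021525), the chain common to the IL-4 and IL-13 receptors, was at 7981 to 14882 normalized counts in licensed cells (median 9262), against 3665 to 7269 in naive cells (median 4660). IL10RB (ENSECAG00000007359), the second chain of the receptors for IL-10, IL-22 and interferon λ, was at 1359 to 2200 in licensed cells and at 677 to 1048 in naive cells. Neither pair of groups overlapped, and both genes changed by close to 2-fold in means (2.10-fold and 2.01-fold), a size that the TMM scaling takes below 2-fold. IL13RA2 (ENSECAG00000024016), a high-affinity receptor that takes up IL-13 as a decoy, was at 8.32 to 69.7 in licensed cells (median 18.2) and at 17.7 to 213 in naive cells (median 59.1). It was lower in 5 horses and slightly higher in horse 1 (69.7 licensed, 57.2 naive), and its log2 fold change, -1.53 ± 0.60 (adjusted p = 0.0249), did not pass once horse 2 or 4 was left out (adjusted p = 0.0890 and 0.0763) and was -1.90 without horse 1. The paired fit put IL13RA2 at an adjusted p of 0.00518. The log2 ratio of IL4R to IL13RA2 lay between 7.72 and 9.79 in licensed and between 4.12 and 7.62 in naive libraries, without overlap. IL4R and IL13RA2 are listed in opposite directions, so a shift of their ratio is no separate result. IL17RE (ENSECAG00000014681), a chain of the IL-17C receptor, was at 41.4 to 67.5 normalized counts in licensed and 117 to 193 in naive cells.

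The TNF receptor family had 2 members listed as higher and 1 as lower. TNFRSF8 (ENSECAG00000014108), CD30, was at 89.8 to 267 normalized counts in licensed cells (median 121), against 16.5 to 63.5 in naive cells (median 30.6). Horse 1 was the highest in both groups, and the change lay between 1.64 and 2.74 on the log2 scale. TNFRSF19 (ENSECAG00000001197), TROY, a receptor of mesenchymal and neural progenitors, was at 8.08 to 61.4 normalized counts in licensed and 117 to 452 in naive cells, with a limma log2 fold change of -3.25 ± 0.42 (adjusted p = 1.40e-05). Horse 3 was the highest and horse 1 the lowest in both groups. The decoy receptor gene TNFRSF6B, which binds FAS ligand in humans, stayed at or below 46.4 in licensed and 11.6 in naive cells.

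Both chemokine receptors in the table are atypical ones, and both fell. ACKR2 (ENSECAG00000003800), which clears inflammatory CC chemokines, was at 16.4 to 26.3 normalized counts in licensed cells, against 86.2 to 175 in naive cells, a limma log2 fold change of -2.66 ± 0.23 (adjusted p = 7.13e-07). Every licensed library was below every naive library. ACKR1 (ENSECAG00000000874), the Duffy antigen, which binds CXCL8 among other chemokines, was at 0 to 22.5 in licensed and 37 to 158 in naive cells. Its licensed library of horse 6 held 0 reads, where counting error again allows up to 3 expected reads, and its groups did not overlap.

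**Figure D3:**
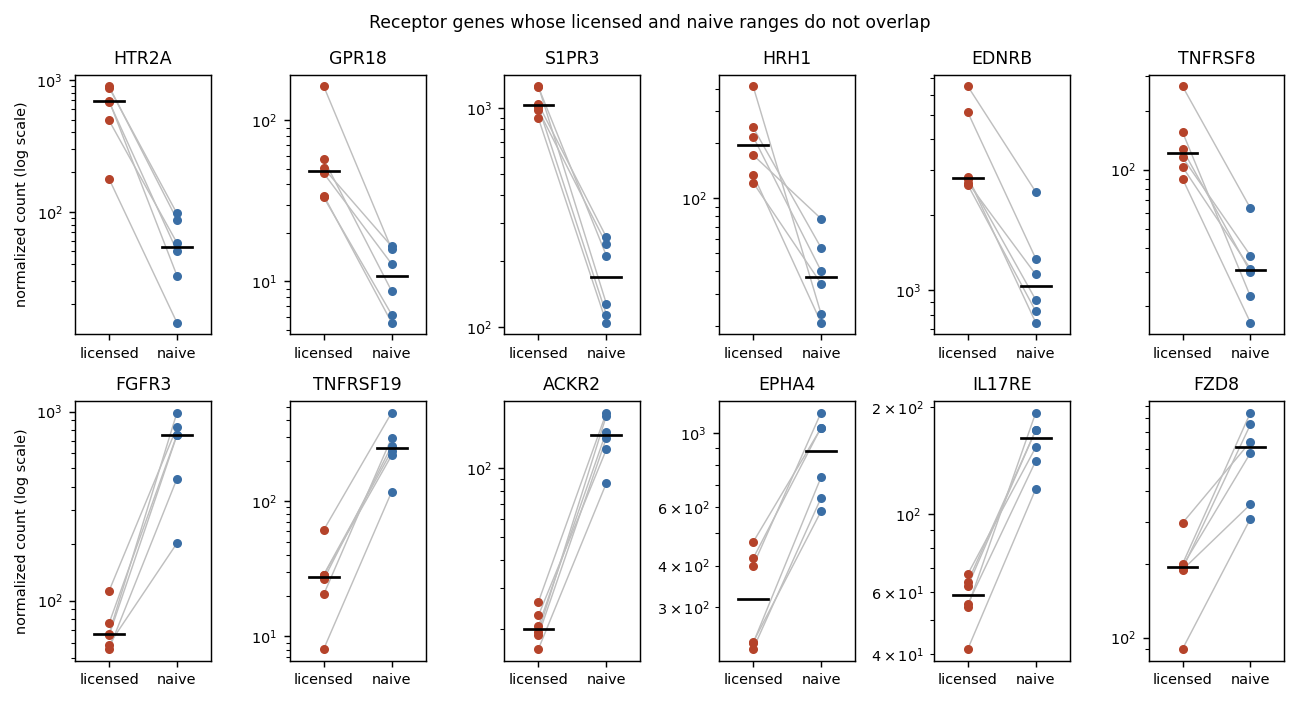
Normalized counts on a log scale for 12 receptor genes whose groups did not overlap, with licensed libraries (red) left of naive libraries (blue), grey lines joining the cultures of 1 horse and black bars for the median of 6. The top row holds genes listed as higher and the bottom row genes listed as lower, and HTR2A shows the low horse 4 at 178 licensed and 14.4 naive.

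Of the Wnt and R-spondin receptors, FZD3, FZD10 and LGR6 were listed as higher and FZD8 as lower. FZD8 (ENSECAG00000005857), a Frizzled receptor of Wnt ligands, was at 89.8 to 296 normalized counts in licensed and 309 to 844 in naive cells. LGR6 (ENSECAG00000011934), an R-spondin receptor of stem cells in skin, was at 33 to 445 in licensed and 4.16 to 126 in naive cells, and was higher in all 6 horses by 0.92 to 3.94 on the log2 scale. Its log2 fold change of 2.40 ± 0.82 (adjusted p = 0.0133) was 2.09 without horse 3 and then missed the threshold (adjusted p = 0.0518). The Frizzled genes that were higher were scarce, with FZD3 (ENSECAG00000018292) at or below 58.9 in licensed and 18.9 in naive cells, and FZD10 (ENSECAG00000001633) at or below 47.5 in licensed and 10.0 in naive cells. FZD10 passed narrowly (adjusted p = 0.0407) and missed the limit when horse 1, 2, 4, 5 or 6 was left out (adjusted p = 0.0562 to 0.114), with a pseudocount of 0.5 (0.0509) and with TMM (0.0594). FZD3 lost it without horse 5 (adjusted p = 0.0573). All of these fits leave out the pairing by horse. The fit paired by horse put FZD10 at an adjusted p of 0.0012, FZD3 at 0.000976 and LGR6 at 0.000207, and each was higher in all 6 horses.

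The tyrosine kinase, Eph and guidance receptor families hold 2, 2 and 1 members, and leave out receptor kinases whose symbols the rule does not take. All 5 were lower in licensed cells (50% of all listed genes are lower), which is too few genes to describe a family. FGFR3 (ENSECAG00000019533), a fibroblast growth factor receptor that restrains cartilage growth, was at 55.5 to 112 normalized counts in licensed cells (median 66.2), against 201 to 986 in naive cells (median 751), a limma log2 fold change of -3.04 ± 0.35 (adjusted p = 5.97e-06). The licensed libraries lay close together, and horse 1, with the lowest naive level, changed the least (-1.76). MET (ENSECAG00000010385), the receptor of hepatocyte growth factor, was at 337 to 756 in licensed and 672 to 1544 in naive cells, so the groups overlapped, while every horse was lower by 0.93 to 1.28. EPHA4 (ENSECAG00000012752), a receptor of ephrins in tissue boundaries, was at 225 to 471 in licensed and 582 to 1150 in naive cells. EPHB2 (ENSECAG00000011631), a receptor of B-type ephrins, was at 27.3 to 188 in licensed cells (median 60.5) and at 60.3 to 1078 in naive cells (median 410), with changes from -3.58 to -2.11 in horses 2 to 6 and of -0.12 in horse 1. UNC5B (ENSECAG00000009792), a repulsive netrin receptor, was at 162 to 462 in 5 licensed libraries and at 595 to 1229 in the matching naive libraries, and both cultures of horse 1 were far below the others, at 19.2 licensed and 137 naive.

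Both adhesion GPCRs were lower. ADGRA2 (ENSECAG00000000011), a Wnt7 coreceptor of brain vessels, was at 262 to 841 normalized counts in licensed and 610 to 2492 in naive cells, with horse 1 lowest in both groups. ADGRG2 (ENSECAG00000023252), a receptor of the male reproductive tract, was at 14.8 to 61.6 in licensed and 25.2 to 126 in naive cells. Its naive level in horse 3, 25.2, lay below the 73.8 to 126 of the other horses, and the change there was -0.51, against -2.80 in horse 4.

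Whether a horse that is high for a receptor in naive culture is also high in licensed culture was examined as the correlation of licensed with naive log2 levels across the 6 horses, for all 1341 listed genes. This comparison was chosen after the values had been seen. The listing did not use it, but the spread between horses enters both, and the correlation in genes that are not listed is not analysed here. For MET the order of the 6 horses was the same in both groups (Pearson r = 0.96, exact permutation p = 0.00139, the smallest that 6 horses can give; Spearman rho = 1, exact permutation p = 0.00278), and r was 0.97 without the 2 horses farthest from the naive median. GPR183 also kept its order (r = 0.93, exact permutation p = 0.00556; rho = 1, exact permutation p = 0.00278; r = 0.98 without the 2 farthest horses), on naive levels of few reads. F2RL2 (r = 0.99, exact permutation p = 0.00556; rho = 0.89, exact permutation p = 0.0333; 0.84 without the 2 farthest) had horse 1 on top in both groups. For UNC5B (r = 0.97, exact permutation p = 0.0153; rho = 0.83, exact permutation p = 0.0583) and ADGRA2 (r = 0.95, exact permutation p = 0.0153; rho = 0.89, exact permutation p = 0.0333) r was 0.77 and 0.75 without horse 1 (exact permutation p = 0.158 and 0.167 with 5 horses), and 0.62 and 0.65 without the 2 farthest horses.

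Adjusted over all listed genes (Benjamini-Hochberg), none of these relations passed. The adjusted permutation p was 0.0745 for MET, 0.0968 for GPR183 and F2RL2 and 0.121 for UNC5B and ADGRA2. The smallest exact p that 6 horses can give, 0.00139, passes adjustment over 1341 genes only when many genes share it. MET was already at that limit, so not passing says little about a single gene. Before adjustment, 11 of the 38 members had a positive r with p under 0.05, which is 28.9%, against 27.4% of all listed genes, and r was positive for 34 members (86.8% of all listed genes). The median r was 0.68 over the members and 0.65 over all listed genes, so that the members stood near the rest of the table. GPR146 went the other way (r = -0.93, exact permutation p = 0.00694, adjusted 0.0991; rho = -0.89, exact permutation p = 0.0333; -0.69 without the 2 farthest horses), with the lowest licensed levels in horses 1 and 4, whose naive levels were the highest. What the 2 cultures of a horse share besides the donor, such as the day of culture, cannot be told apart from the donor here.

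**Figure D4:**
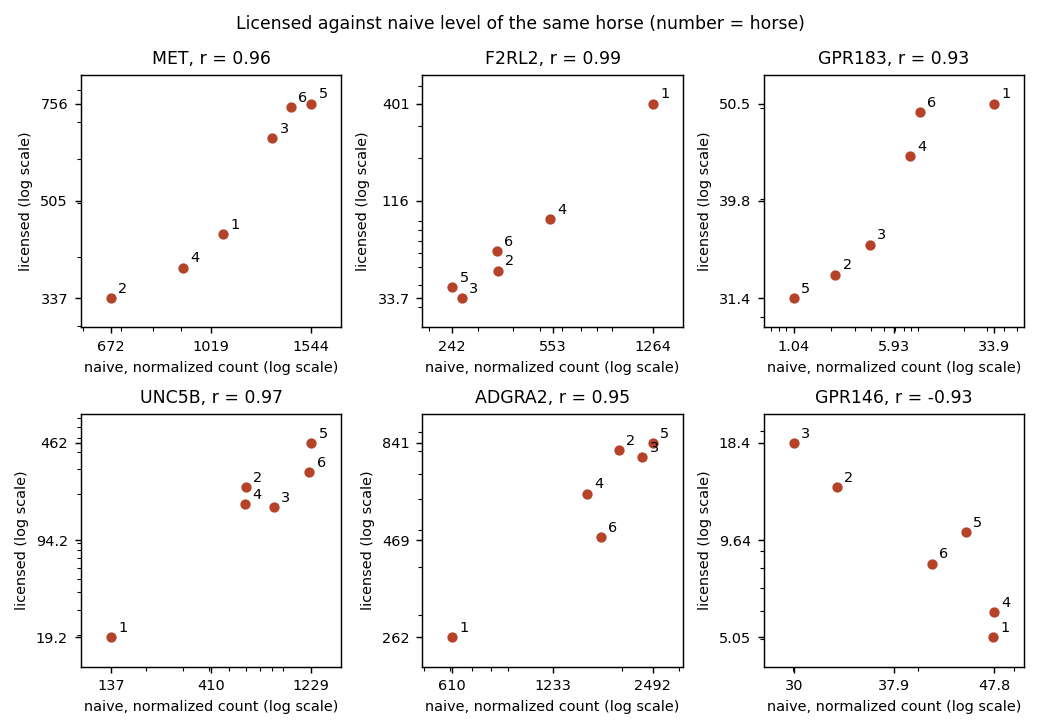
Licensed (vertical axis) against naive (horizontal axis) normalized counts, both on log scales, with 1 numbered point per horse, for 6 receptor genes. MET and GPR183 rise in the same order of horses, the points of UNC5B and ADGRA2 spread from a separate horse 1, and GPR146 falls.

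Receptors were then set beside their ligands, from lists of pathway genes outside the receptor set. The lists were drawn up with results of these data known, so each count only describes the table, in which 10.2% of the genes tested are listed and 50% of the listed genes are higher. Whether every gene of a list was among those tested is unknown, and 208 listed genes carry no symbol. The share of a list in the table and the 10.2% thus have unlike bases, here and for the later lists. Of 23 growth factor genes for receptor kinases, 11 were in the table (47.8%), with 7 higher and 4 lower in licensed cells. HGF, the ligand of MET, was at 42.5 to 116 normalized counts in licensed and 391 to 823 in naive cells, so receptor and ligand genes fell in every horse. FGF1 and FGF18, which can bind FGFR3, rose in every horse, by 3.13 to 3.86 and by 1.93 to 3.61 on the log2 scale, while FGFR3 fell. Of 19 TNF superfamily ligand genes, 2 were listed as higher, TNFSF8 among them, and 1, TNFSF13, as lower. TNFSF8, the ligand of TNFRSF8, was at 249 to 386 normalized counts in licensed cells, against 19.1 to 98.8 in naive cells, a limma log2 fold change of 3.01 ± 0.36 (adjusted p = 7.06e-06). Ligand and receptor thus rose together in all 6 horses.

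Of 19 guidance ligand genes, 8 were in the table (42.1%), with 2 higher and 6 lower in licensed cells (50% of all listed genes are lower). NTN1, netrin 1, which binds UNC5B, was at 98.2 to 229 normalized counts in licensed and 575 to 1082 in naive cells and fell in every horse by 1.94 to 2.61 on the log2 scale. SLIT2 and SLIT3 had deposited log2 fold changes of -1.80 and -2.85 and SEMA7A one of 1.77, while no ROBO, plexin or neuropilin gene was found by symbol. EFNA5, an ephrin that binds EPHA4 and EPHB2, was the only listed gene of 8 ephrins and had medians of 5.08 in licensed and 35.1 in naive cells. A list of 35 genes for ligands of GPCRs and related enzymes had 8 in the table (22.9%), all of them higher (50% of all listed genes). Not all of the 8 encode GPCR ligands: PTGS2 (a prostaglandin-forming enzyme), F3 (tissue factor) and PLAU (a plasminogen activator) do not. The 8 include CXCL8 (521 to 4195 normalized counts in licensed and 7.75 to 188 in naive cells), which ACKR1 binds, and RSPO3 (1761 to 4312 in licensed and 358 to 2398 in naive cells), a ligand of LGR6.

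**Figure D5:**
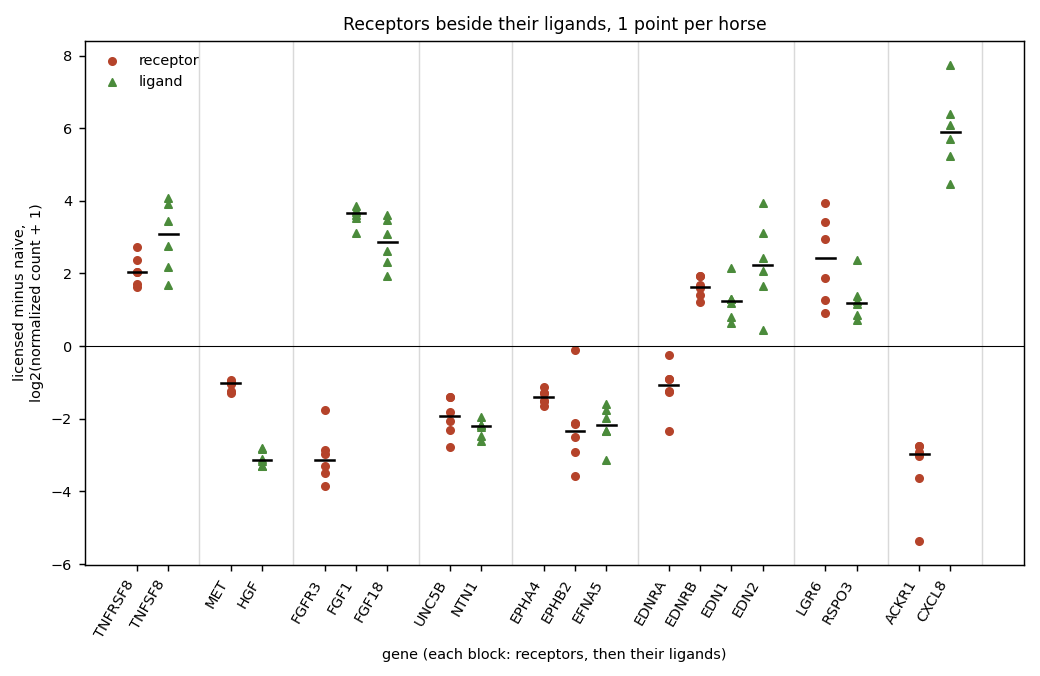
Difference in log2(normalized count + 1) between licensed and naive culture for 10 receptors (red circles) and 10 of their ligands (green triangles), with 1 point per horse and a bar at the median. TNFRSF8 and TNFSF8 lie above 0 and MET with HGF, UNC5B with NTN1 and the Eph receptors with EFNA5 below 0, while FGFR3 and ACKR1 lie below 0 and their ligands above.

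Downstream of GPCRs, 10 of 56 genes of G protein signalling were in the table (17.9%), with 6 higher and 4 lower in licensed cells. RGS16, which speeds the shut-off of G proteins, was at 24.5 to 330 normalized counts in licensed cells, against 38.1 in naive horse 1 and 0 to 1.11 in the other naive cultures. The phospholipase C genes PLCB1 and PLCB4, the adenylyl cyclase gene ADCY7 and the phosphodiesterase genes PDE3A and PDE4D were the others that were higher, by 1.03 to 1.75 in deposited log2 fold change. PDE1A was at 0 to 7.82 in licensed and 9.69 to 142 in naive cells, and GNAO1, PDE5A and RGS17 were lower too. Of 29 feedback regulators of receptor kinases and cytokine receptors, 4 were in the table (13.8%, near the 10.2% of all genes tested), and these, ERRFI1, LRIG1, SOCS3 and TRAF3, were all higher. SOCS3, which blocks JAK-STAT signalling, was at 2268 to 5577 normalized counts in licensed and 1057 to 2138 in naive cells.

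Signalling receptors whose symbols the rule does not take were listed as 6 higher and 2 lower of 60 (13.3% in the table, near the 10.2% of all genes tested). PLAUR, the urokinase receptor, was at 3286 to 4963 normalized counts in licensed and 613 to 1649 in naive cells, and BMPR1B, a receptor of bone morphogenetic proteins, had medians of 20.0 in licensed and 1.05 in naive cells. The interferon receptor genes IFNAR1 and IFNAR2, the oncostatin M receptor gene OSMR and NOTCH1 had deposited log2 fold changes of 1.01 to 1.04, at the edge of the table. TGFBR3 was lower, at 290.5 to 528 normalized counts in licensed and 1465 to 2694 in naive cells, as was MERTK, a receptor kinase that binds GAS6.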

How the data were processed

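Bulk RNA-seq of 6 licensed and 6 naive MSC cultures of 6 horses was used. The submitters' processing notes name Trimmomatic 0.36, STAR 2.5.2b, featureCounts of Subread 1.5.2 and DESeq2. The sources used here give no genome build, annotation or strand setting, so a gene cannot be separated from one that overlaps it on the other strand. The authors deposited 1 table of 1341 genes with the log2 fold change (licensed over naive), its p-value and its adjusted p-value, all from their own test. The table also has a signal in each library, which the authors made by dividing reads per gene by the size factor of the library (normalized counts). All values (100%) of each library were whole multiples of 1 step within 0.01 reads, so whole reads were recovered. The step of licensed horse 1 lies near 1. The number of genes the authors tested was found from the ratio of adjusted to raw p. DESeq2 1.42.0 without the horse returned the deposited log2 fold changes (0 genes off by more than 0.01). The depth of whole libraries is unknown, and the number of reads limits the precision of scarce genes.

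limma 3.58.1 (R 4.3.3, trend, robust) was fitted to log2(normalized count + 1) over 12 libraries without the horse, with Benjamini-Hochberg adjustment over 1341 genes. It gives errors and is not independent of the authors' selection. The added 1 draws changes of scarce genes towards 0. Even so, the limma estimate of a scarce gene can lie above or below the deposited log2 fold change. It was 2.60 against 2.08 for GPR183 and 1.76 against 2.20 for FZD10. A single gene passed at an adjusted p under 0.05, and counts also asked for a 2-fold change. edgeR 4.0.16 and DESeq2 on recovered reads, other scalings, pseudocounts and filters, the horse block and leaving out each horse were alternatives, and the tests were checked on simulated data. Horse numbers pair the cultures by donor: deviations from group means correlated at 0.48 to 0.63 within a horse. Of the genes with a matching symbol, 36 are described and 2, like some other genes, are not reported here though they are in every count. Those with a mean of at least 50 normalized counts in the higher group (31 of 38, counted over all) are given with the range or median of each group and the other 7 mostly by their highest level. Members and lists were chosen with earlier results of these data known. No sequences or coordinates were used.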

Additional observations from a re-analysis of the deposited data

Results flagged for a closer look

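In 10 of 114 groups of 6 values (the licensed levels, the naive levels and the changes of 38 genes, on the log2 scale), 1 horse lay farther from the rest than Dixon's 95% limit. That is 8.77% of the groups, where chance gives about 1 in 20. Over all listed genes the shares were 7.08% for licensed levels, 14.2% for naive levels and 8.72% for changes. Horse 1 supplied 6 of the 10. UNC5B was low in its licensed library (19.2 normalized counts, against 162 to 462 in the other horses) and in its naive library (137, against 595 to 1229), and ADGRA2 was low in its naive library (610, against 1570 to 2492). GPR18 was high in its licensed library (163, against 33.3 to 57.3), and P2RX7 was high in its naive library (825, against 126 to 197). The change of F2RL2 was the smallest in horse 1 (-1.65, against -2.92 to -2.49 on the log2 scale).

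The other flags came from 3 horses. In horse 6 the change of ACKR1 was -5.37 (against -3.63 to -2.75 in the other horses), where the licensed library held 0 reads, and the licensed level of FZD8 was 89.8 (against 190.2 to 296). The licensed level of HTR2A was low in horse 4, at 178 (against 492 to 892), and the naive level of ADGRG2 was low in horse 3, at 25.2 (against 73.8 to 126).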

How the results depend on the processing

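The counts of 17 higher and 20 lower members held within 1.5 times under every alternative run except TMM over the listed genes, which left 11 members higher. The members that dropped out there were BDKRB1, FZD3, FZD10, GPR153, IL4R and IL10RB, and P2RX7 was added to those lower. Without 1 horse at a time, 13 to 16 members were higher and 18 to 20 lower. The fit with the horse as replicate block gave 17 higher and 20 lower members, and its only changed call on a single member was P2RX7 (adjusted p = 0.0218). edgeR and DESeq2 on recovered reads each gave 17 higher and 21 lower, and edgeR without horse 1, added after the data had been seen, gave 15 and 20. A pseudocount of 5 moved 3 scarce members by over 1.5 times, to log2 fold changes of -2.65 for ACKR1, -2.01 for ADRA1D and 1.94 for GPR183. No member changed direction in any of the 14 alternative fits. The correlation across horses passed adjustment for 0 members and 0 listed genes with 6 horses, under each scaling, pseudocount and filter tried, against 11 members and 368 listed genes at an unadjusted p under 0.05 by the exact permutation test. With 5 horses it passed for none either. With 6 horses, and more so with 5, too few orders of the horses exist for the adjusted test to say much about a single gene. Depth limits the 7 members with means under 50 normalized counts.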
